A study of Caenorhabditis elegans with 2 samples.

Results

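The nuclear hormone receptor genes of Caenorhabditis elegans were examined for binding of CEH-36, a homeodomain transcription factor, in a chromatin immunoprecipitation and sequencing (ChIP-seq) experiment. Members were all but 1 of the protein-coding genes whose symbol starts with nhr- in the Ensembl annotation of WBcel235 (the ce11 build), which gave 268 of 19985 protein-coding genes. The family was matched to the authors' list of 1662 peaks that passed their irreproducible discovery rate (IDR) procedure, called the optimal peaks. A summit from 1500 bp upstream to 500 bp downstream of the start of a gene was placed in its start window. Apart from these, peaks were taken whose nearest protein-coding start was a member. Together these rules gave 26 peaks at 20 genes.

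There was 1 group with 2 biological replicates, numbered 1 and 2 in the labels. They are whole early embryos of pooled sexes, collected 2 hours after egg bleaching, from strain OP620, which carries the allele unc-119(tm4063) on chromosome III and the transgene wgIs620. That transgene stably expresses CEH-36 with a GFP-FLAG tag at its C-terminus, and it was pulled down through GFP per the sample description, while another label field lists ceh-36 as the antibody. Which cells express the transgene is not stated in those labels, and neither untagged embryos nor another stage were analysed here. Each value below is a peak's signal as the authors' peak caller gave it, on a scale of its own in each list, so levels are set side by side only as ranks. Read depth is unknown from peak lists.

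Nuclear hormone receptors are transcription factors with a zinc finger domain that binds DNA and a second domain that, in many of them, binds a small lipophilic molecule. C. elegans has a greatly expanded family, most of it related to the vertebrate HNF4 receptor and much of it on chromosome V. Known members act in fat metabolism, molting, dietary response and neuron identity, while the roles of many are unknown. CEH-36 belongs to the Otx class, whose homeodomain has a lysine at position 50 (K50) and binds TAATCC. Homeodomains with a glutamine there (Q50) bind TAATTA. The end of a C. elegans chromosome is built of the unit TTAGGC, and scattered stretches of that unit also lie inside the chromosomes, many of them in introns.

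Of the 268 receptor genes, 11 (4.10%, 95% interval 2.07% to 7.23%, exact binomial) had an optimal summit in the start window, against a background of 4.18% of all protein-coding genes. Another 14 peaks had a member as their nearest start, at 10 genes (3.73%, 1.80% to 6.75%), against 4.22% of all genes that were nearest to a peak outside their own start window. With both rules 20 receptor genes (7.46%, 4.62% to 11.3%) had a peak, against 7.99% of all genes, and 248 had none. The family's shares lie within 1 percentage point of the background under every one of these rules. Intervals cover counting error only, and p-values are not given because there is 1 group and the family was chosen with results known.

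A telomere-like repeat lay under most of the peaks. Of the 26 peaks, 20 (76.9%, 56.4% to 91%) had a telomere-like repeat, defined as at least 3 units, TTAGGC on one strand or GCCTAA on the other, in the 391 bp centred on the summit. The share was 34.4% of all optimal peaks and 2.10% of the 28018 background entries, which are the pooled candidate regions that overlap no optimal peak. On chromosome arms, the outer 25% on each side, 529 of the 1043 nuclear optimal peaks had a repeat. Of the 26 receptor gene peaks 25 lay on arms, among them all 20 with a repeat. These 20 peaks belonged to 15 of the 20 genes. Another 2 peaks lay on a tRNA gene. Counting TAATCC within 100 bp of the summit, 2 had it without a repeat or small RNA gene, and 2 had none of these. The difference between the family and all peaks was not tested.

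The sequences below show how repeat and homeodomain core stand at some of these peaks, together or apart. Each is the plus strand of WBcel235 from 100 bp before to 100 bp after the summit, with every telomere unit and every TAATCC, on either strand, in capitals. The first 6 are the strongest peaks with TAATCC in this window, and the last 2 hold TAATCC away from repeats and small RNA genes. Those of nhr-121 and nhr-146 are examples with a repeat and no TAATCC in the part shown. The nhr-121 peak does hold TAATCC just outside that part, at -100.5 and 137.5 bp from the summit.
nhr-70, chrV:18613291-18613491: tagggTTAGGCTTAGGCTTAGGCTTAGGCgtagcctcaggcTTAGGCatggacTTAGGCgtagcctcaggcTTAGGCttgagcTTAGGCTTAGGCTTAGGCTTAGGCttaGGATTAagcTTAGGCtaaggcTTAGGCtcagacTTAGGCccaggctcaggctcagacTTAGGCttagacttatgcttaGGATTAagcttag
nhr-88, chrII:2979150-2979350: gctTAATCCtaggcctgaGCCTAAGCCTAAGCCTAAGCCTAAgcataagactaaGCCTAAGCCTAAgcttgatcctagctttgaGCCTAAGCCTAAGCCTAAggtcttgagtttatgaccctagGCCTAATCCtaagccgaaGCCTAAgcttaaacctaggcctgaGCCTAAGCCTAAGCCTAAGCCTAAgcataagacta
nhr-61, chrII:14819712-14819912: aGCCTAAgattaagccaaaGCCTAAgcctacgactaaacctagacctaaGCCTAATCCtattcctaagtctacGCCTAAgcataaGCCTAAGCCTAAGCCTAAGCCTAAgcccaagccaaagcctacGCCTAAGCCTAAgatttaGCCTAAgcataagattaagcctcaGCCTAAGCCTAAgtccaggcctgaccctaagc
nhr-234, chrII:12636728-12636928: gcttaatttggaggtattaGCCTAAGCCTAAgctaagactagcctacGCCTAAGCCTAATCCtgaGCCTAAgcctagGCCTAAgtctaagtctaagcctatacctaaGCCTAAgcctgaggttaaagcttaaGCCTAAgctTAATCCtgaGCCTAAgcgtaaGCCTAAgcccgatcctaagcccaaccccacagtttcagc
nhr-239, chrIII:2562590-2562790: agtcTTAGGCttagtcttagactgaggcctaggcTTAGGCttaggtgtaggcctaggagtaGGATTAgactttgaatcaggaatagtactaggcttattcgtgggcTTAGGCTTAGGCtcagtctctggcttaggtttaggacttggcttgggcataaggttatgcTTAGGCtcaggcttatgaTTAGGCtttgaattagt
nhr-61, chrII:14819040-14819240: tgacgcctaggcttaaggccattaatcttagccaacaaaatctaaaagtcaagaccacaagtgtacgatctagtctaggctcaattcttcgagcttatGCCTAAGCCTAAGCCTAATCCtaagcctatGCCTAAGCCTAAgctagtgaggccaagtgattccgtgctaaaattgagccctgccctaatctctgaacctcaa
nhr-121, chrIII:2455559-2455759: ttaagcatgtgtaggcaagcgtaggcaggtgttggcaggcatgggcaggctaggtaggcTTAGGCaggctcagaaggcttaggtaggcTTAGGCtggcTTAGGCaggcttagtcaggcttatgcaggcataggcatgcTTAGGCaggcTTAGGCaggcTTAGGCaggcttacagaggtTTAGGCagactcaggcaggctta
nhr-146, chrIV:1628382-1628582: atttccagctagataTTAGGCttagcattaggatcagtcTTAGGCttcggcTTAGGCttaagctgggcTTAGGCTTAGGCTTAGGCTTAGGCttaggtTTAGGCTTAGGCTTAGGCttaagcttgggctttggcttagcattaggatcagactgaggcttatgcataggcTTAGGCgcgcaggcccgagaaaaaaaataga
nhr-15, chrV:313007-313207: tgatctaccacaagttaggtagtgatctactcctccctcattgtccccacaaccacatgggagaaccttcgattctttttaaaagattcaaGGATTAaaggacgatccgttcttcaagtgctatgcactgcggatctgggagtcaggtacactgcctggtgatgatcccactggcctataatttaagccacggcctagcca
nhr-41, chrIV:1374757-1374957: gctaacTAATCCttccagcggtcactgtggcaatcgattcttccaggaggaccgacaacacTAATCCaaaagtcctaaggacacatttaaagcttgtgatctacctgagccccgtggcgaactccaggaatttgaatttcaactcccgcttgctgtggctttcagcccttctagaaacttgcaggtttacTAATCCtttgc

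TAATCC, on either strand, lay within 100 bp of the summit at 17 of the 26 peaks (65.4%, 44.3% to 82.8%) and in 2 of their flanking windows 500 bp to the left (7.69%). The shares were 41.6% of all optimal peaks, 7.34% of their flanks and 17.9% of background entries. The longer form CTAATCC was at 15 receptor peaks (57.7%), against 25% of all optimal peaks and 4.39% of background entries. The Q50 core TAATTA was at 0 of the 26 (upper bound 13.2%), against 5.54% of all optimal peaks and 7.01% of background entries. In the 17 peaks the nearest TAATCC lay a median of 29.5 bp from the summit (range 2.5 to 87.5 bp).

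Repeat and core mostly coincided. Within 100 bp of the summit, 15 of the 20 telomere-like peaks (75.0%) held TAATCC, against 51.5% of all optimal peaks with such a repeat. Of the 6 others 2 held it there, against 36.5% of optimal peaks with no repeat. TAATCC differs from TAAGCC, which is the telomere unit read on the other strand and in another frame, by the substitution G4T, counted from 1 at the 5′ end of TAAGCC. At the receptor peaks 11 of 21 occurrences of TAATCC (52.4%) stood directly beside an intact TAAGCC, as in the nhr-61 and nhr-234 sequences, against 220 of 440 (50%) at all nuclear telomere-like optimal peaks. The homeodomain core and an altered copy of the telomere unit are therefore the same letters at these places, and which of them a summit marks was not tested.

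**Figure D1:**
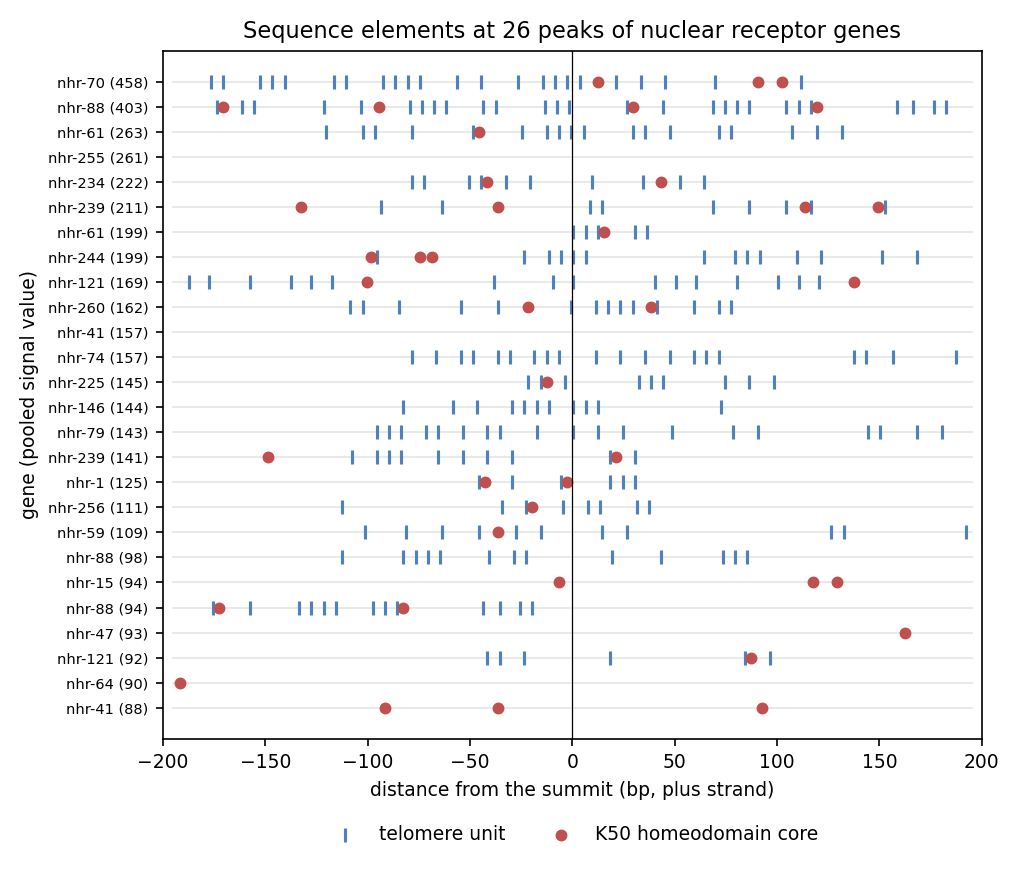
Positions of the telomere unit (blue ticks, either strand) and of the K50 homeodomain core (red dots, either strand) in the 391 bp centred on the summit, for the 26 peaks ordered by pooled signal value (in brackets after the gene). Ticks fill 20 of the rows, while nhr-255, both peaks of nhr-41, nhr-15, nhr-47 and nhr-64 have none, and the second nhr-121 peak has 6.

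**Figure D2:**
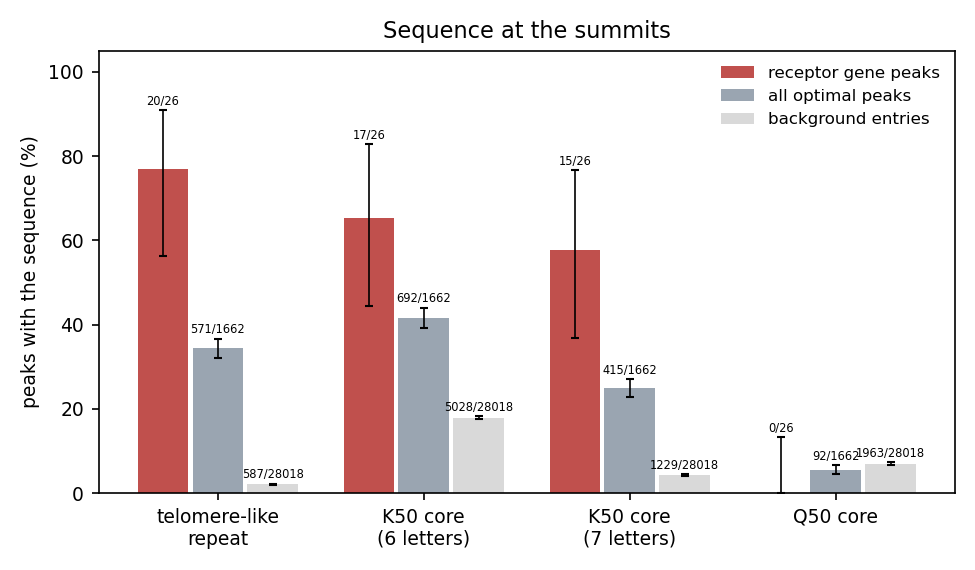
Share of peaks with each sequence, in percent, for the 26 receptor gene peaks, all 1662 optimal peaks and 28018 background entries; bars carry exact binomial 95% intervals and counts. The 6-letter core is TAATCC, the 7-letter core CTAATCC and the Q50 core TAATTA, each counted within 100 bp of the summit. Receptor gene peaks reach 76.9% for the repeat and 0 for the Q50 core.

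The gene nhr-61 (chrII:14816136-14818543, minus strand) had 2 repeat peaks in its start window, both intergenic, and one of them was the strongest start window peak of the family. The peak 1269 bp upstream (chrII:14819758-14819890, 18 units) had a pooled signal of 262.6, with 108.9 in replicate 1 (rank 249) and 154.2 in replicate 2 (rank 198). The other, 597 bp upstream (chrII:14818945-14819334, 5 units), had 199.0 pooled, with 80.4 in replicate 1 (rank 444) and 118.0 in replicate 2 (rank 323). They ranked 205 and 363 in the optimal list, and both ranked higher in replicate 2 than in replicate 1.

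In nhr-234 an intron held the summit, 150 bp past the start (chrII:12636633-12637022, 10 units). Its pooled signal was 222.3 (rank 287), with 93.1 in replicate 1 (rank 340) and 131.5 in replicate 2 (rank 266). The peak 852 bp upstream of nhr-121 (chrIII:2455464-2455853, 16 units) had a signal of 169.2, and ranked 511 in replicate 1 and 514 in replicate 2. The intron of nhr-74 held 20 units, more than any other start window peak of the family, 406 bp downstream of the start (chrI:11429225-11429614). It had a signal of 156.8 and no TAATCC, and ranked 521 in replicate 1 and 569 in replicate 2. Neither of these 2 summits, at nhr-121 and nhr-74, had the core within 100 bp.

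The remaining 3 start window peaks with a repeat were on the left arm of chromosome V. An intron of nhr-225 held 9 units 480 bp downstream of the start (chrV:2289799-2290188, signal 144.9), and the peak ranked 754 in replicate 1 and 588 in replicate 2. The peak 391 bp upstream of nhr-256 (chrV:1743185-1743574, 8 units, signal 110.7) ranked 871 and 1427 in replicates 1 and 2. The peak 897 bp upstream of nhr-59 (chrV:2278967-2279356, 11 units, signal 109.4) ranked 1087 and 1223. It lay in an intron of the neighbour fbxa-137, an F-box gene whose start is nearer, at 346 bp. This is the only start window peak of the family with a nearer start of another gene.

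Of the 12 start window peaks, 4 had no repeat. The strongest was 492 bp upstream of nhr-255 (chrX:15742027-15742177) with a signal of 260.9, ranked 247 in replicate 1 and 207 in replicate 2. Its summit lay within a tRNA gene (WBGene00014626), and it also fell in the start window of srg-64, a gene of a chemoreceptor family. The other 3 were near the lower end of the optimal list, which began at 87.2.

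An intron of nhr-15 held the peak's summit 386 bp past its start (chrV:312912-313301). It had a signal of 94.2, with 52.4 in replicate 1 (rank 974) and 39.0 in replicate 2 (rank 3262), and TAATCC stood 6.5 bp from the summit. The peak of nhr-47, 19 bp downstream of the start in an exon (chrV:5505077-5505466), had a signal of 93.5 and ranked 1511 and 1402 in replicates 1 and 2. It was shared with the start window of dnj-19, a gene of the DnaJ type. The gene nhr-64, an HNF4-type receptor known for a part in fat metabolism, had a peak in an exon 46 bp downstream of the start (chrI:3101702-3102091). Its signal was 90.5, with ranks of 3135 in replicate 1 and 1201 in replicate 2. Of these 3, only nhr-15 had the core within 100 bp of the summit.

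The gene nhr-41, the worm counterpart of the vertebrate receptors TR2 and TR4, was nearest to 2 peaks without a repeat. The peak 11358 bp upstream (chrIV:1374662-1375051) had 3 copies of TAATCC within 100 bp of the summit, the family's most in that window. Its signal was 88.5, the lowest of the 26, with 55.3 in replicate 1 (rank 866) and 36.4 in replicate 2 (rank 4014). The other was inside nhr-41, in an intron 2063 bp past the start (chrIV:1388254-1388351, signal 156.8), on a tRNA gene (WBGene00023202) and without the core. It ranked 455 in replicate 1 and 734 in replicate 2. The upstream peak thus rested more on replicate 1, while the intron peak was among the strongest 1662 entries of both.

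All the other 12 nearest-start peaks had a repeat, and 6 of them were in introns of the member itself. The gene nhr-88 had 3 in its introns. The one 2611 bp downstream of the start (chrII:2979147-2979328, 27 units) had a signal of 402.9, with 166.1 in replicate 1 (rank 99) and 236.6 in replicate 2 (rank 62). A second, 2813 bp downstream, lay on the same stretch of repeats (chrII:2979257-2979646, signal 94.1) and ranked 1369 and 3396. The third, 1486 bp downstream (chrII:2977930-2978319, 13 units, signal 98.2), ranked 1647 in replicate 1 and 1800 in replicate 2. The first ranked 75 of all optimal peaks, while its neighbours ranked 1391 and 1267.

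Single intron peaks were found in nhr-239, nhr-146 and nhr-79. That of nhr-239, 980 bp downstream of the start (chrIII:2562495-2562884, 9 units), had a signal of 210.6 and ranked 525 in replicate 1 and 243 in replicate 2. The peak in nhr-146 (chrIV:1628287-1628676, 11 units) had 144.2, with ranks of 901 and 559. That in nhr-79 (chrV:19207919-19208308, 19 units) had 143.1, with ranks of 789 and 611. The peaks in nhr-146 and nhr-79 held no TAATCC. That of nhr-239 held 1 copy within 100 bp of the summit and others farther out.

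The strongest peak of the family was not in a receptor gene. It lay 3196 bp upstream of nhr-70 in an intron of grdn-1 (chrV:18613250-18613530, 23 units) with a signal of 458.0, and it held rank 49 in replicate 1 and 56 in replicate 2. Those nearest to nhr-244 (chrI:11457016-11457405, signal 198.7, intron of ZK1025.4) and 5636 bp upstream of nhr-239 (chrIII:2555879-2556268, signal 141.3, intron of feh-1) were also in introns of other genes. The peaks of nhr-260 (chrV:1516548-1516937, signal 161.8), nhr-1 (chrX:17509601-17509990, signal 125.1) and the second of nhr-121 (chrIII:2456448-2456837, signal 91.6) were intergenic, 5106, 4267 and 1836 bp upstream. The assignment of these 6 peaks to a receptor gene rests on distance alone.

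In all, 13 of the 20 repeat peaks (65.0%) had the summit in an intron, of which 9 were in the member and 4 in another gene, and 7 (35.0%) were intergenic. Over all 26 peaks 57.7% were in introns, against 44.7% of the 1636 nuclear optimal peaks, and 34.6% were intergenic, against 47.4%. The same shares for only the optimal peaks with a repeat are not given here. Read along the member's strand, 10 of the 20 had only TTAGGC, 8 had only GCCTAA and 2, both in nhr-88, had both. The peaks held 5 to 27 units (median 12), against a median of 13 over the 571 optimal peaks with a repeat. Because 2 peaks of nhr-88 shared a stretch, the 20 peaks stood for 19 stretches.

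The family is unevenly spread, and so were its peaks. A chromosome was divided into its middle 50%, the centre, and the outer 25% on each side, the arms. Of the receptor genes 160 of 268 (59.7%) started on an arm, against 44.7% of nuclear protein-coding genes. On arms 19 of 160 (11.9%, 7.30% to 17.9%) had a peak by either rule, against 10.5% of all genes there. In centres 1 of 108 (0.926%, 0.0234% to 5.05%) had one, namely nhr-47 at 26.3% of the length of chromosome V, against 5.89% of all genes there. In the start window alone the shares were 6.25% of receptor genes on arms, against 5.02% of all genes, and 0.926% in centres, against 3.40%.

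**Figure D3:**
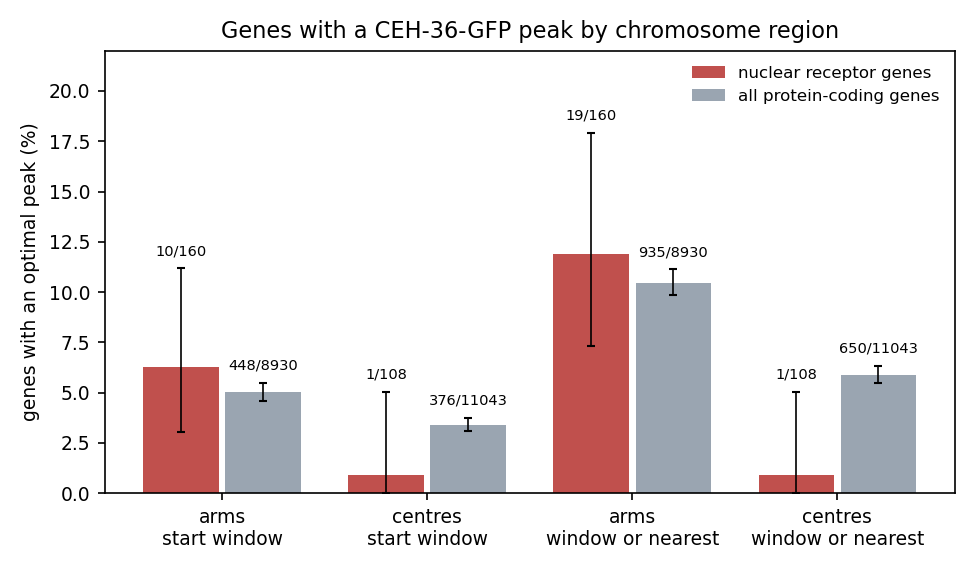
Share of genes with an optimal peak on chromosome arms and in centres, in percent, for receptor genes and all protein-coding genes; error bars are exact binomial 95% intervals and the counts stand above them. In centres 1 of 108 receptor genes had a peak, against 650 of 11043 genes by either rule.

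Chromosome V held 167 of the 268 members, and 8 of these (4.79%, 2.09% to 9.22%) had a peak, against 4.85% of its 4994 genes. On its arms 7 receptor genes had one (6.31%), against 6.12% of all genes, and in its centre 1 of 56 (1.79%), against 3.7%. On the other chromosomes 12 members (11.9%, 6.29% to 19.8%) had a peak, against 8.97% of all genes. By chromosome these were 3 of 23 on I, against 10.5% of all genes, 3 of 15 on II, against 8.87%, and 2 of 8 on III, against 11.3%. They were 2 of 33 on IV, against 6.49%, and 2 of 22 on X, against 8.17%. Of the 26 peaks 25 lay on arms, including all 20 with a repeat, against 63.8% of nuclear optimal peaks and 92.6% of those with a repeat. Members that share a neighbourhood are not independent of each other.

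The genome sequence shows which receptor genes had a repeat with and without a peak. Of the 268 start windows 10 (3.73%, 1.80% to 6.75%) held 3 or more units within 391 bp, against 3.16% of all nuclear protein-coding genes. Of these 10, 7 had an optimal summit, against 30.1% of 631 such windows in the genome. The 3 without one were those of nhr-70 and nhr-244, which had a repeat peak farther off, and of nhr-216 in the centre of chromosome V. Of the 258 start windows with no such repeat 4 (1.55%, 0.424% to 3.92%) had an optimal summit, against 3.28% of all such windows. TAATCC was in 139 start windows (51.9%), against 48.6% of all genes, so most windows with the core had no summit. Of the 131 with the core and no repeat 4 (3.05%) had a summit, against 4% of all such windows, and of the 127 with neither 0 (upper bound 2.86%), against 2.61%. Of these 4 summits only that of nhr-15 had the core within 100 bp. Those of nhr-64, nhr-47 and nhr-255 did not, and that of nhr-255 lay on a tRNA gene.

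Across the genome 1988 such stretches of repeats were found, of which 43 had a receptor gene as nearest start, at 29 genes. Of the 43, 18 (41.9%, 27.0% to 57.9%) overlapped an optimal peak, against 28.1% of all, and 29 (67.4%) overlapped a pooled entry, against 63.1%. On arms lay 42 of the 43 (97.7%), against 87.7% of all. The share went with the number of units. It was 1 of 19 with 3 to 5 units (5.26%), 7 of 14 with 6 to 10 units (50%) and 10 of 10 with over 10 units, against 4.06%, 29.6% and 76.7% of all stretches. With TAATCC within 100 bp of the stretch 14 of 19 overlapped a peak (73.7%), against 53.6% of all, and without it 4 of 24 (16.7%), against 16.1%. The group on the right arm of chromosome V near nhr-231, nhr-170, nhr-65, nhr-230 and nhr-243 held stretches of 3 to 10 units with no optimal peak and no TAATCC. The labels do not state how the authors placed reads from such repeats, and its part in these counts was not tested.

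**Figure D4:**
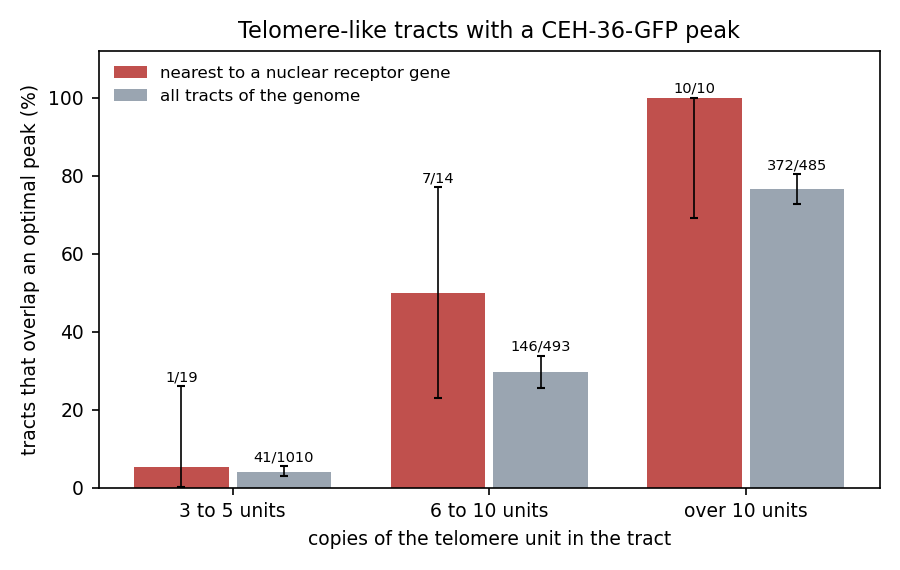
Share of telomere-like stretches that overlap an optimal peak, in percent, by number of units, for stretches nearest to a receptor gene and for all 1988 of the genome; error bars are exact binomial 95% intervals. All 10 long stretches near receptor genes had a peak, against 372 of 485 in the genome.

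Receptors with known roles were counted beside the shares over all protein-coding genes, 4.18% in the start window and 7.99% by either rule. Of 9 receptors of subfamilies shared with insects or vertebrates (nhr-6, nhr-8, nhr-23, nhr-41, nhr-48, nhr-67, nhr-85, nhr-91 and nhr-111) 0 had an optimal summit in the start window, and 1, nhr-41, was nearest to one. Of 11 receptors known for metabolic or dietary roles 1, nhr-64, had a peak. The other 10 were nhr-8, nhr-10, nhr-13, nhr-49, nhr-62, nhr-66, nhr-68, nhr-80, nhr-86 and nhr-114. Of 5 known for roles in the embryo, molting or organ formation (nhr-2, nhr-6, nhr-23, nhr-60 and nhr-67) 0 had one by either rule. Among 5 receptors without the nhr- symbol, which are not members, daf-12, unc-55 and fax-1 had none by either rule. The nearest start was that of odr-7, which specifies the AWA olfactory neuron, for a peak of signal 173.0 lying 3452 bp downstream of it, and that of sex-1 for an intron peak of signal 123.5. Neither of those had a repeat or, within 100 bp of the summit, TAATCC.

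Weaker candidates lay in the start windows of many members. Of the 268, 90 (33.6%, 28.0% to 39.6%) had a pooled entry there before IDR, against 44.6% of all genes, and 64 (23.9%) had an entry in both replicate lists, against 33.4%. The strongest entry below the authors' threshold was 167 bp upstream of nhr-86, an HNF4-type receptor (chrV:2066822-2067211), with a signal of 83.3, rank 1834 pooled, 2082 in replicate 1 and 2246 in replicate 2, and with TAATCC. It stood just outside the optimal list, which ended at rank 1662, while nhr-64 at rank 1524 and the upstream nhr-41 peak at 1608 stood just inside. Next came entries at nhr-70 (signal 78.6, 10 units, 200 bp upstream), nhr-32 (77.3) and nhr-48 (73.0, 493 bp upstream). Those at nhr-114 and nhr-49, receptors of diet and fat metabolism, had signals of 61.8 and 55.9, and that at nhr-2, a receptor of the early embryo, 36.9. The remaining role list members with an entry in the window had 28.1 to 42.6 and ranked 10697 or lower. Of the 98 weaker entries in member windows 4 (4.08%) had a repeat and 19 (19.4%) had TAATCC, against 2.10% and 17.9% of all background entries.

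By distance, the start window peaks nearest to its limits were those of nhr-61 at 1269 bp upstream and nhr-225 at 480 bp downstream. The first outside were the second nhr-121 peak at 1836 bp upstream and the nhr-239 intron peak at 980 bp downstream.

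Both replicate lists, of 30000 entries each, held an entry for all 26 peaks, as they did for 99.6% of optimal peaks. The optimal peaks were thresholded on these replicates. In both lists 20 of the 26 (76.9%, 56.4% to 91%) were among the 1662 strongest, against 67.3% of optimal peaks. For repeat peaks this was 17 of 20 (85%), against 77.1% of all repeat peaks, and for the others 3 of 6, against 62.2%. Their ranks had a median of 694.5 in replicate 1 (49 to 3135) and 599.5 in replicate 2 (56 to 12033), and 13 ranked higher in each. The widest gap was at the second nhr-121 peak, with rank 1005 in replicate 1 and 12033 in replicate 2. Its −log10 of the q-value in replicate 2 was 0.28. Summits lay a median of 12.5 bp from the pooled summit in replicate 1 and 8 bp in replicate 2. The pooled signals ran from 88.5 to 458.0 with a median of 144.6, against 125.1 for all optimal peaks. The median was 150.9 for the 20 repeat peaks, against 145.3 for all repeat peaks, and 93.9 for the other 6, against 114.8 for all nuclear peaks without a repeat.

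**Figure D5:**
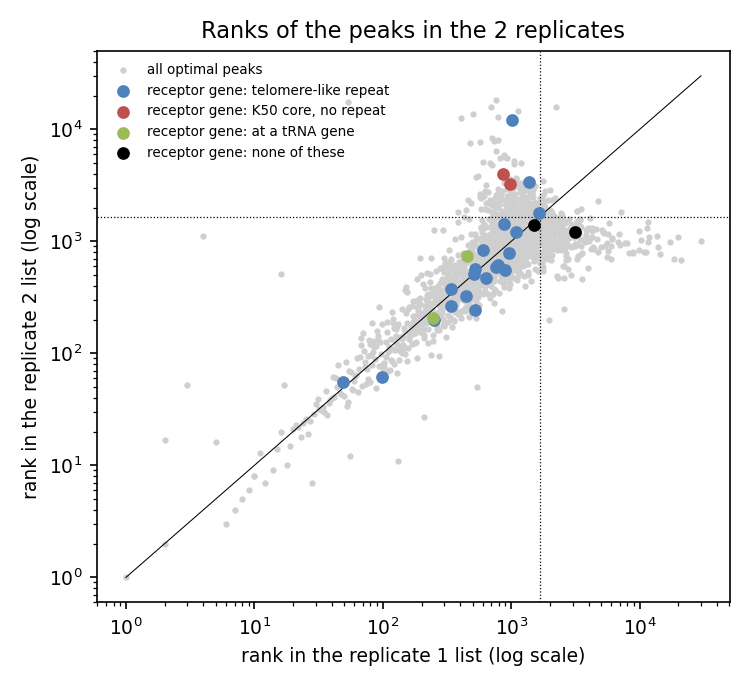
Rank of each peak in the replicate 1 list (x axis) and the replicate 2 list (y axis), both on log scales, for the 26 receptor gene peaks by class and for all optimal peaks in grey; dotted lines mark rank 1662 and the solid line equal ranks. The strongest receptor peaks, at ranks 49 and 56 for nhr-70, lie on the diagonal, and the second nhr-121 peak lies far above it.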

How the data were processed

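The samples are 2 biological replicates of tagged CEH-36 ChIP-seq in early embryos. Per the descriptions deposited beside the files, peaks and background were called on ce11 for each replicate and for both pooled, against a control, and the optimal peaks were derived from these by IDR. The labels name no aligner, peak caller or IDR threshold. The deposited signal value and −log10 of the q-value per peak are those of the authors' caller, and depth is unknown. The ce10 lists were not used.

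Starts came from the Ensembl release 115 annotation and sequence from RefSeq's WBcel235 genome, and 0 entries ran past a chromosome end. The gene start was the outermost annotated position. Peaks were assigned and motifs counted on both strands with Python 3.11.15, pandas 2.3.3 and numpy 2.4.6, and exact binomial intervals with scipy 1.17.1. Background entries overlapped no optimal peak by 1 bp or more. A replicate's value is that of its entry overlapping the peak with the nearest summit. The scripts were tested on simulated peaks with known answers. No test was made: counts stand beside those over all genes or peaks. The members, role lists and definitions were chosen with earlier results of these data known. Every member with a peak is named, as are role list members, and no sequence is shown from chromosome I or a window that touches an annotated UTR; the nhr-15 and nhr-41 sequences were added after their values were seen, and 1 gene with the family's symbol is not reported here.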

Additional observations from a re-analysis of the deposited data

How the results depend on the processing

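No paired analysis was possible because there is 1 group. Of 34 alternatives 26 moved a count by no more than 1.5 times. With the 1662 strongest entries of replicate 1 alone, 11 members had a start window summit, 21 peaks had a repeat and 18 had TAATCC. With those of replicate 2 alone, the counts were 10, 17 and 14. In both, 11 members were nearest to a further peak and 19 members with a peak lay on arms. Replicate 1 alone lacked nhr-64 and added nhr-32 in the start window, and replicate 2 alone lacked nhr-15. In the stronger 831 optimal peaks 6 members had a start window summit and 11 of 17 peaks had TAATCC. With all pooled entries before IDR, 90 members had a start window entry and 108 were nearest to a further one, 33 of 355 entries had a repeat (9.30%), 78 had TAATCC (22%), and 95 of 144 members with an entry were on arms. With TAATTA in place of TAATCC 0 of 26 peaks held the site. All 8 counts that moved by over 1.5 times did so with the stronger 831 peaks, all pooled entries or TAATTA. With all pooled entries the shares with a repeat and with TAATCC also fell, from 76.9% and 65.4%. Why they changed was not tested. Depth, which would set what could be detected, is unknown.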
